A study of Mus musculus with 14 samples.

Results

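The genes described here are 6 markers of the Paneth cell, namely Lyz1, Defa21, Ang4, Itln1, Mmp7 and Pla2g2a. They were chosen by name, as the probes whose gene name in the scanner files equals one of these symbols, and they are 6 of 36282 gene names on the array. RNA levels were read from Agilent SurePrint G3 Mouse arrays with a single dye, 1 array for each of 14 samples in 5 groups. Healthy small intestine (3 arrays) and colon (3) were tissue of C57BL/6J mice, and the paper calls the healthy samples of its methylation design mucosa. Adenomas (3) and the tissue adjacent to adenomas (2) were from APCmin/+ mice. These mice are also in a C57BL/6J background and carry a germline mutation of the tumor suppressor Apc. CT26 (3) is a colon carcinoma cell line that was derived from a BALB/c mouse, so it differs from all tissue groups in strain as well as in being cultured. Wild-type mice were adults of more than 8 weeks, and no age is given for the APCmin/+ mice in the sources used here. The study's own list places all adenoma and adjacent samples under 1 mouse, so that the spread in these groups is that between pieces of tissue, whereas the small intestine samples came from different mice. The list also places 1 colon sample under an APCmin/+ mouse without tying it to an array. The paper's methods name more than 1 APCmin/+ mouse for the study as a whole.

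Paneth cells are secretory cells at the base of small intestinal crypts, where they neighbor the stem cells. They release granules of antimicrobial proteins into the crypt and supply the stem cells with growth factors and Wnt and Notch signals, and Wnt signaling, which Apc restrains and which acts through beta-catenin and Tcf factors, is itself needed for their maturation. A healthy mouse colon contains few or none of them. The members are proteins of the granule or its processing. Lyz1 is a lysozyme that cuts bacterial cell walls, Defa21 an alpha-defensin, Ang4 an angiogenin-type ribonuclease with antimicrobial activity, and Itln1 intelectin, a lectin for microbial sugars. Mmp7, or matrilysin, cleaves the inactive pro-form of alpha-defensins. Pla2g2a is a secreted phospholipase that attacks bacterial membranes, and it is known as Mom1, a modifier of adenoma number in mice with the Min mutation, whose copy in C57BL/6 is disrupted.

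Alpha-defensin genes are near copies of each other, and the probe for Defa21 is shown beside its nearest neighbor on the array to show how few bases separate them. Capitals mark the bases that differ. The Defa32 probe starts 1 base earlier, and 49 of the 59 aligned bases are identical, leaving 10 that differ. The coordinates are those of the file, in mm9.
Defa21 (chr8:22166019-22166078, + strand): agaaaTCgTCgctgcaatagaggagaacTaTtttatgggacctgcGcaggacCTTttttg
Defa32 (chr8:22640300-22640359, + strand): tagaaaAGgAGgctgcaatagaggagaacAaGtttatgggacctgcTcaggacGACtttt
The accessions of the Defa21 probe also list Defa22, so both transcripts are read by it, and a share of signal from other alpha-defensins was not tested.

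The promoter of Defa21 is shown because Tcf factors recognize the motif ATCAAAG, marked in capitals. These are the 250 bases before the RefSeq start (GRCm38.p6, chr8:21025295-21025544, + strand).
Defa21 promoter: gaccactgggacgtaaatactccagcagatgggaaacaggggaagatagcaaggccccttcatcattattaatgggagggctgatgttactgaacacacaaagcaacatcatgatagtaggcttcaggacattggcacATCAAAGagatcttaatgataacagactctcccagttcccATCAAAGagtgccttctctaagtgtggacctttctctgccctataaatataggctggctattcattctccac
The 2 matches begin at positions -112 and -72 from the start. Over windows of 250 bases before to 50 after each start, read on both strands, 1225 of 32851 RefSeq promoters held the motif (3.73%), and 33 held it at least 2 times (0.1%). Among 16 other alpha-defensin promoters, 12 held it (75%), and 8 of them at least 2 times; these promoters are copies of one another, so they are not independent cases. Mmp7 also held a match, which began 5 bases after the first of its RefSeq starts.
Mmp7 (GRCm38.p6, chr9:7692086-7692108, + strand): caggaaacATCAAAGtagctctg
The windows of Lyz1, Ang4 and Itln1 held 0 matches, which says only that these letters are not in those windows. A match is a description of sequence, and binding was not measured here.

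Levels are scaled log2 signals, that is, the log2 of the background-subtracted signal minus the 75th percentile of the array, so that a difference of 1 is a doubling. A level of one probe cannot be set against that of another, since probes differ in brightness. Differences between groups were tested with limma over all probes, with Benjamini-Hochberg adjustment, and a gene was called where its log2 difference reached 1.2 in size and its adjusted p was 0.01 or less. Comparisons that share a group share its arrays. Nothing in the labels says that the CT26 arrays came from separate cultures, so p-values there may measure technical spread. The adenoma and adjacent samples are listed under 1 mouse, so their p-values leave out the spread between such animals. Against healthy tissue, a difference of the tumor cannot be told apart from one of that mouse. In tissue that holds many cell types, fewer Paneth cells and less RNA per Paneth cell cannot be told apart.

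One array has to be described before the results. The library labelled colon replicate 3 went against its label in part. Its median over 10 markers of small intestinal enterocytes was 5.19, against -2.38 and -2.16 in the other two colon arrays. Its median over 9 colonocyte markers was 2.22, against 5.59 and 5.49, while their summed level was alike, at 9.63 against 9.38 and 9.26. The list was split, since Car1, Hoxb13 and Aqp8 stood at -3.09, -5.79 and -4.62 there, against 7.17, 7.22 and 6.44 in colon replicate 1 and 7.75, 5.61 and 6.78 in replicate 2, whereas Saa1 was higher there (9.38 against 7.49 and 7.05), as was Car4 (6.55 against 5.59 and 5.11), and B3galt5 was near them at 4.62. Its median over 22 alpha-defensins other than Defa21 was 9.90, above the range of 9.24 to 9.60 in small intestine, and -6.18 and -4.19 in the other two. Every comparison of members with colon is therefore given with and without this library.

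**Figure D1:**
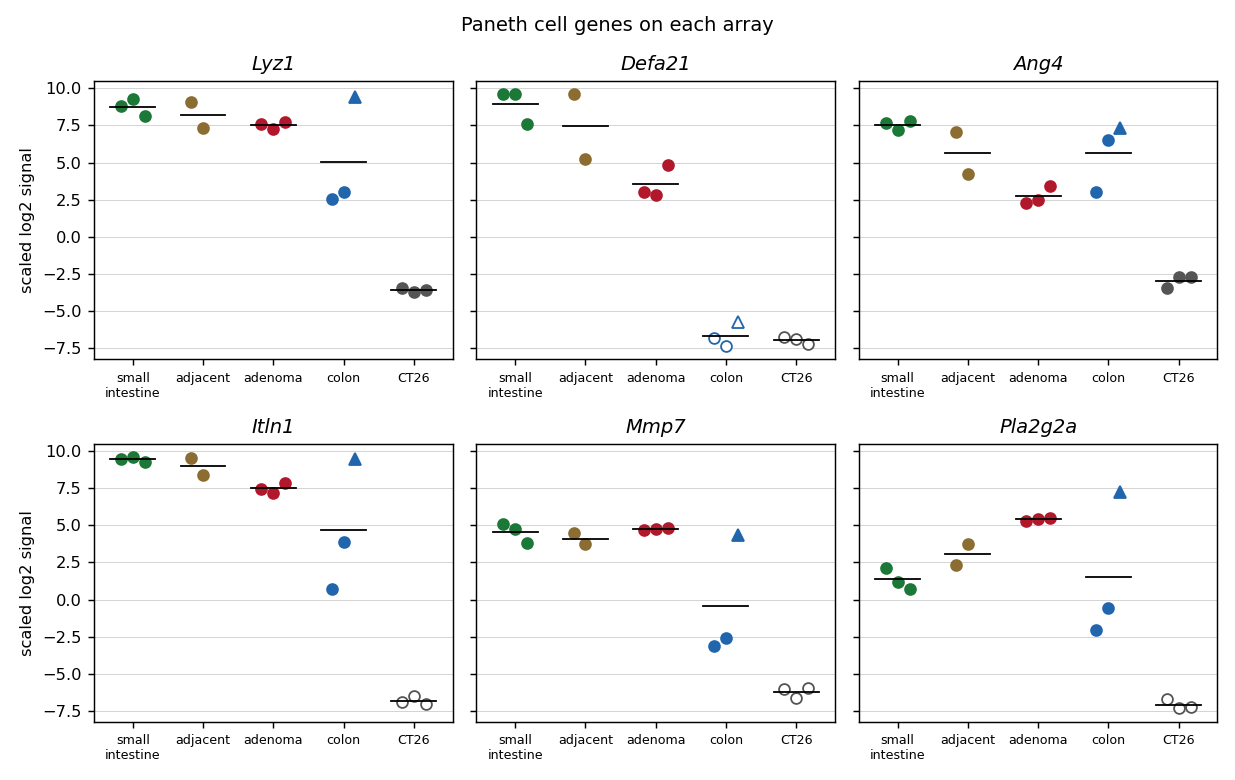
Scaled log2 signal (vertical axis) of each Paneth gene on every array, by group; each point is 1 array, open where the probe was not well above background, the triangle is the library labelled colon replicate 3, and the line is the group mean. Defa21 and Ang4 are highest in small intestine and low in all 3 adenomas, Pla2g2a runs the other way, from 0.74 to 2.13 in small intestine to between 5.31 and 5.47 in adenomas, and the library labelled colon replicate 3 lies far from the other colon arrays for every gene except Ang4 and Defa21.

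Against healthy small intestine, the Paneth genes of adenomas moved in opposite directions. Defa21, Ang4 and Itln1 were underexpressed, by 41.6-fold, 28.5-fold and 3.88-fold, while Pla2g2a was overexpressed 16.5-fold. Lyz1 and Mmp7 did not pass both thresholds. Thus 3 of the 6 members were called lower and 1 higher, where 11.1% of the 22150 genes tested were called lower and 11.3% higher.

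Defa21, the alpha-defensin, had levels of 9.64, 9.59 and 7.57 in the small intestine arrays and of 2.998, 2.82 and 4.85 in the adenomas. All adenomas lay below all small intestine arrays. The difference was -5.38 (SE 0.72, adjusted p = 0.00127), with -4.68 on the first slide and -6.78 on the second. The neighboring Defa32 probe had the same shape, at 9.77, 9.88 and 8.20 in small intestine and 3.75, 3.79 and 5.96 in adenomas.

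Ang4, the angiogenin, showed 7.69, 7.19 and 7.80 in small intestine and 2.28, 2.49 and 3.41 in adenomas. Arrays within each group stayed close together, and the groups were far apart. The difference was -4.84 (SE 0.33, adjusted p = 0.000124), with -4.91 and -4.69 on the 2 slides.

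Itln1, the lectin, had levels of 9.48, 9.59 and 9.29 in small intestine and 7.46, 7.16 and 7.87 in adenomas. The fall was smaller than those of Defa21 and Ang4 and the groups did not overlap. The difference was -1.96 (SE 0.22, adjusted p = 0.000628). The other two Itln1 probes gave -2.22 and -2.54 (adjusted p = 0.000695 and 0.000714), so that all 3 probes passed. In a single fit of all 5 groups, whose spread includes the third colon library, the call was lost (adjusted p = 0.316). One of the other probes shares 53 of 57 aligned bases with the probe of Itlnb, a paralog of Itln1. The probe read here shares 31 of 35 aligned bases with it, and a share of signal from Itlnb was not tested.

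Lyz1, the lysozyme, stood at 8.79, 9.29 and 8.15 in small intestine and 7.62, 7.23 and 7.70 in adenomas. The groups did not overlap, but the gap between the lowest small intestine array and the highest adenoma was small. The difference of -1.22 (SE 0.31) had an adjusted p of 0.0144, just above the threshold of 0.01, so Lyz1 was not called. It was -0.81 on the first slide and -2.05 on the second. Without small intestine replicate 3 it was -1.52 and passed (adjusted p = 0.00451), as it did with normexp background correction (adjusted p = 0.00754).

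Mmp7, the protease that matures alpha-defensins, had levels of 5.08, 4.75 and 3.82 in small intestine and of 4.68, 4.78 and 4.81 in adenomas. The adenomas lay inside the range of the small intestine arrays. The difference was 0.21 (SE 0.32, adjusted p = 0.605), which does not show that the levels are the same.

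Pla2g2a was the single member called higher. It stood at 2.13, 1.21 and 0.74 in small intestine and at 5.31, 5.44 and 5.47 in adenomas, with all adenomas above all small intestine arrays. The difference was 4.05 (SE 0.34, adjusted p = 0.000226), with 3.96 and 4.23 on the 2 slides, and the call was lost in the fit of all 5 groups (adjusted p = 0.0789). Since the C57BL/6 copy is disrupted and RefSeq lists it as a transcribed pseudogene, the probe reads the transcript and says nothing of a working protein. Its 60 bases are shown here (mm9, chr4:138390748-138390807, + strand). Read in triplets from the first base, they hold a single stop codon, at base 58, in capitals. The frame of the transcript itself was not checked.
Pla2g2a probe: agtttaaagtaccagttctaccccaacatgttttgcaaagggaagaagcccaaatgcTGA

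**Figure D2:**
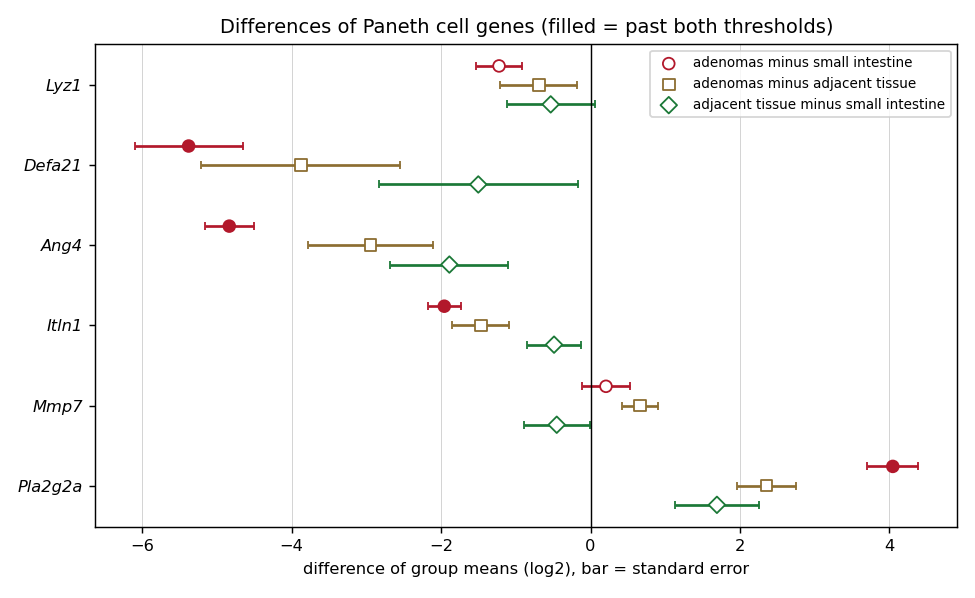
Log2 differences (horizontal axis) of each Paneth gene between adenomas, adjacent tissue and small intestine (circles, squares and diamonds for the 3 pairs), with bars of 1 standard error from limma and filled points past both thresholds. Against small intestine, adenomas sit at -5.38 for Defa21 and -4.84 for Ang4 and at 4.05 for Pla2g2a, whereas Mmp7 sits at 0.21.

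The remainder of the Paneth program was read from gene lists. Between adenomas and small intestine, 11.1% of all genes tested were called lower and 11.3% higher. Of 22 other alpha-defensins on the array, 20 could be tested between adenomas and small intestine, and 17 of them fell, with 0 higher. Their median log2 difference was -2.89, against -0.15 over all genes tested. Defa-rs7 fell by 4.59 (adjusted p = 0.00107), Defa25 fell by 4.49 (adjusted p = 0.00138), AY761185 fell by 4.06 (adjusted p = 0.00131) and Defa26 fell by 3.86 (adjusted p = 0.00077). Because these probes share sequence, the 20 genes are not independent measurements.

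Among 14 other secreted products that have been described in Paneth cells, 8 fell and 2 rose, where 11.1% of all genes were called lower and 11.3% higher. Their median was -2.51. The angiogenins Ang2 and Ang had differences of -5.02 and -4.07 (adjusted p = 0.0001 and 0.000164), Guca2b, which encodes uroguanylin, fell by 3.50 (adjusted p = 0.00128), and Reg3a, an antimicrobial lectin, fell by 3.27 (adjusted p = 0.00477). The 2 that rose were Lbp, the lipopolysaccharide binding protein, at 4.51 (adjusted p = 0.000126), and Habp2, a hyaluronan-binding serine protease, at 3.20 (adjusted p = 0.000608). Lbp rose 22.8-fold and Habp2 rose 9.2-fold, on the same side as Pla2g2a.

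Of 13 signals and receptors that link Paneth cells with the stem cell niche, 11 were tested. Of these, 2 rose and 0 fell, where 11.3% of all genes were called higher and 11.1% lower. Their median was 0.18. At an unadjusted p under 0.05 in limma, 4 were on the higher and 2 on the lower side, where 59.4% of all probes tested were under 0.05. Ephb3, the receptor that positions Paneth cells at the crypt base, rose by 2.18 (adjusted p = 0.00143) and the ligand Wnt6 by 2.04 (adjusted p = 0.00327). Of 10 transcription factors of Paneth and other secretory cells, 4 rose and 1 fell, the latter near the 11.1% of all genes called lower. Sox9, which is required for Paneth cells to form, rose by 3.15, or 8.85-fold (adjusted p = 0.000288), Spdef by 1.24 (adjusted p = 0.00508) and Creb3l1 by 1.21 (adjusted p = 0.00928). The fourth was Tcf4, at 1.99 (adjusted p = 0.000495), which is the gene of the E2-2 factor and not Tcf7l2, the Wnt effector whose protein is also called TCF4, so its place in a Paneth list rests on the shared name, and 3 of 9 rose without it. Bhlha15, or Mist1, a factor of mature secretory cells, fell by 1.91 (adjusted p = 0.00562).

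**Figure D3:**
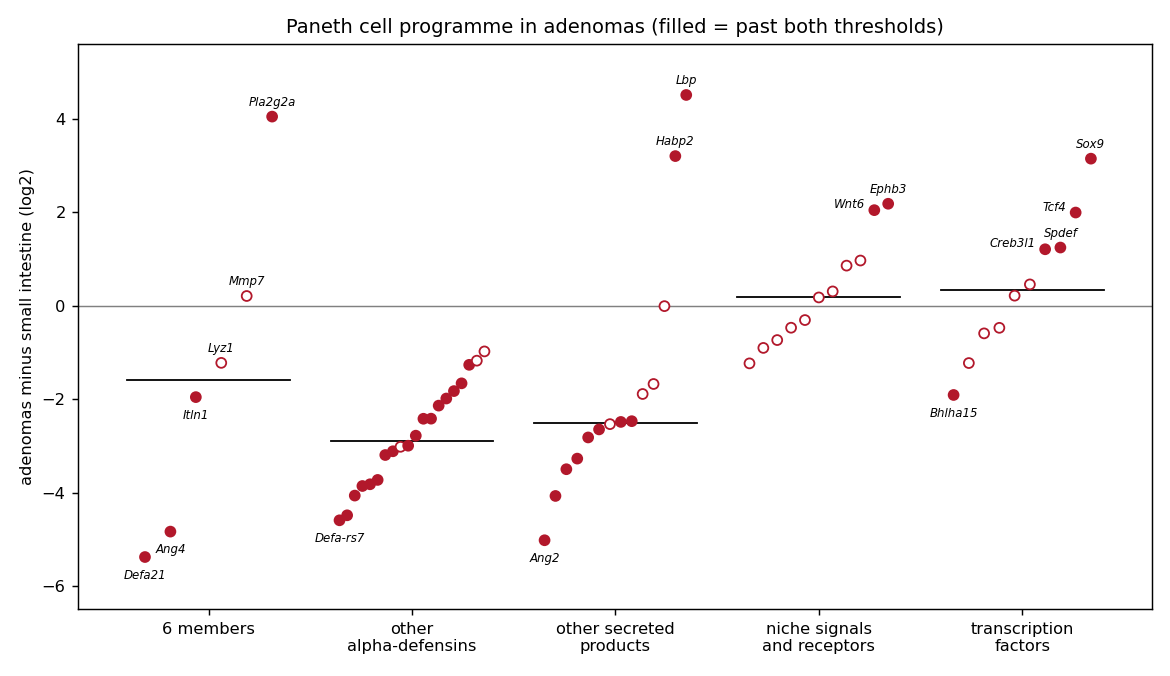
Log2 difference between adenomas and small intestine (vertical axis) for each tested gene of the Paneth lists; each point is 1 gene, filled where it passed both thresholds, and the horizontal bar is the median of the list. The alpha-defensins lie between -4.59 and -0.98, all below 0, whereas the niche and transcription factor lists have medians of 0.18 and 0.34.

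Markers of other cell types moved in the same comparison, in which 11.1% of all genes were called lower and 11.3% higher. Of 10 enterocyte markers 6 fell, and their summed level went from between 11.04 and 12.12 in small intestine to between 8.59 and 9.32 in adenomas. Of 9 goblet cell markers 5 fell and 1 rose, with summed levels of 11.4 to 11.6 and 9.93 to 10.4. Stem cell markers (6 of 8) and pyloric gland markers (9 of 9) rose, the latter from summed levels of -0.98 to 2.95 to between 8.48 and 9.31. The part of these shifts in the Paneth gene differences was not tested. Neutrophil markers (3 of 7 tested) also rose. Pyloric gland and neutrophil markers dim in small intestine were tested only through the adenomas and could hardly be called lower.

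The tissue adjacent to adenomas was represented by 2 arrays that stood apart from each other. Defa21 was at 9.63 and 5.24 in adjacent replicates 1 and 2, Ang4 at 7.08 and 4.26, and Itln1 at 9.52 and 8.41. Lyz1 stood at 9.10 and 7.32, Mmp7 at 4.45 and 3.74, and Pla2g2a at 2.36 and 3.74. Replicate 2 lay on the adenoma side of replicate 1 for Defa21, Ang4, Itln1 and Pla2g2a. Its Lyz1 lay inside the adenoma range, and its Mmp7 lay below all small intestine arrays and all adenomas. On a scale on which the small intestine mean is 0 and the adenoma mean is 1, given for the 4 members called between those groups, replicate 1 was at -0.13 for Defa21, 0.1 for Ang4, -0.03 for Itln1 and 0.25 for Pla2g2a, and replicate 2 at 0.69, 0.68, 0.53 and 0.59. Among other lists, summed levels in replicates 1 and 2 were 10.5 and 9.63 for goblet cells, 2.48 and 3.95 for pyloric gland cells, 5.80 and 6.21 for stem cells and 13.8 and 12.7 for the other alpha-defensins, and they ranged from 10.9 to 11.1 for enterocytes. Their part in the differences between the arrays was not tested.

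With these arrays, 0 of 6 members were called between adenomas and adjacent tissue, where 2.4% of all genes were called higher and 1.78% lower. At an unadjusted p under 0.05 in limma there were 5, with 2 higher and 3 lower, where 38.1% of all probes tested were under 0.05. Pla2g2a had a difference of 2.35 (SE 0.40, adjusted p = 0.0163), Itln1 of -1.47 (SE 0.38, adjusted p = 0.0469) and Ang4 of -2.95 (SE 0.83, adjusted p = 0.0583). Defa21 differed by -3.88 with an SE of 1.33 (adjusted p = 0.0917), the widest error of the 6. Mmp7 had 0.66 (SE 0.24, adjusted p = 0.103) and Lyz1 -0.69 (SE 0.51, adjusted p = 0.366), with overlap for Lyz1. Without adjacent replicate 2 the group is 1 array, which is then assumed to vary as the adenomas do, and Ang4 (-4.35, adjusted p = 0.00652) and Pla2g2a (3.04, adjusted p = 0.00235) were past the thresholds.

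In this comparison all 20 tested alpha-defensins had values below 0, from -3.89 to -0.97, and 0 were called by limma, while 17 had an unadjusted p under 0.05, as 38.1% of all probes did. Habp2 (3.68, adjusted p = 0.0083), the niche gene Cd24a (1.31, adjusted p = 0.00628), Sox9 (2.17, adjusted p = 0.00709) and Spdef (1.67, adjusted p = 0.00608) were higher in adenomas.

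Between adjacent tissue and healthy small intestine, 0 of 6 members were called, where 0.00922% of genes were called higher and 0% lower. One member, Pla2g2a, had an unadjusted p under 0.05 in limma, where 30.3% of all probes did. Its 2 adjacent arrays lay above all 3 small intestine arrays, with a difference of 1.69 (SE 0.56, adjusted p = 0.115). Ang4 differed by -1.89 (SE 0.79, adjusted p = 0.172), also without overlap. Separation of 2 arrays from 3 comes easily, and its share over all genes was not counted. Defa21 (-1.50, SE 1.33), Lyz1 (-0.53, SE 0.59), Itln1 (-0.49, SE 0.36) and Mmp7 (-0.45, SE 0.44) overlapped. These differences came from adjacent replicate 2 for Defa21, Lyz1 and Itln1, whose values without it were 0.69, 0.36 and 0.07.

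In colon, the members separated the library labelled colon replicate 3 from the other two arrays. Lyz1 was at 2.58, 3.05 and 9.44 in colon replicates 1, 2 and 3, Mmp7 at -3.12, -2.61 and 4.37, and Itln1 at 0.75, 3.86 and 9.45. Pla2g2a was at -2.02, -0.55 and 7.22, so its highest level of all 14 arrays was found there. Ang4 did not follow this split, with 3.04, 6.54 and 7.30. The third array lay within the small intestine range for Mmp7, Itln1 and Ang4 and above it for Lyz1 and Pla2g2a. Defa21 was not well above background on any of the 3 colon arrays, the third included, at -6.81, -7.36 and -5.74.

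Against small intestine, Defa21 was at least 11000-fold lower in colon (adjusted p = 0.0018), the only one of 6 members called, where 0.00483% of genes were called in each direction. At least 15000-fold was found without the third library (adjusted p = 0.000177). These are bounds, from the dimmest probes well above background. Defa21 was tested only because small intestine had it above background, so it could hardly be called higher. The call was lost without small intestine replicate 1 or 2 or colon replicate 1 or 2 (adjusted p = 0.0362, 0.0229, 0.0165 and 0.0181) and with the slide as a block (adjusted p = 0.0141). Without that library 4 of 6 members were lower and 0 higher, where 3.91% and 3.33% of genes were called. Mmp7 fell by 7.41 (SE 0.42, adjusted p = 0.00042), Itln1 fell by 7.15 (SE 0.84, adjusted p = 0.00397) and Lyz1 fell by 5.92 (SE 0.38, adjusted p = 0.000637). With it, the differences were -5.001, -4.77 and -3.72, with adjusted p of 0.185, 0.211 and 0.251. Pla2g2a turned from 0.19 (adjusted p = 0.968) to -2.64 (adjusted p = 0.0238). Ang4 had the smallest difference after that of Pla2g2a in both cases, at -1.93 (adjusted p = 0.307) and -2.77 (adjusted p = 0.082).

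The alpha-defensins gave the same contrast between the sets of arrays. Without the third library 19 of 20 tested genes fell. Their sizes are not given, since 4 of the 22 genes were well above background in colon replicate 1 and 15 in replicate 2. Genes dim in either colon array were tested only because small intestine had them above background. They could hardly be called higher, so their direction was largely set in advance. With the third library 0 were called by limma and 10 had an unadjusted p under 0.05, as 23.5% of all probes did.

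Within the third library the alpha-defensin probes did not match the small intestine arrays one by one. Of 33 probes, 32 were well above background there and the exception was Defa21. Of the 22 probes that the files place on chr8, 6 lay more than 2 log2 units below the small intestine mean, and 0 lay more than 2 above the highest of the other 13 arrays. Defa32, Defa21's neighbor, stood at -1.07 on the probe shown here and at 10.6 on its other probe. Defa25 stood at 2.39 against a small intestine mean of 6.53.

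The 9 probes without a place in mm9 went the other way. All 9 lay above every one of the other 13 arrays, 7 of them by more than 2, with a median gap of 4.41. Defa-rs4 was at 10.68 there and was well above background on 0 of the other 13 arrays. Defa4 was at 7.58, where the small intestine mean was -3.77. The remaining 2 probes are placed on chr8_random, and 1 of them was also more than 2 above all other arrays. The set of alpha-defensin genes is known to differ between inbred strains of mice, as is the Pla2g2a allele. The strain behind this library was not tested.

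**Figure D4:**
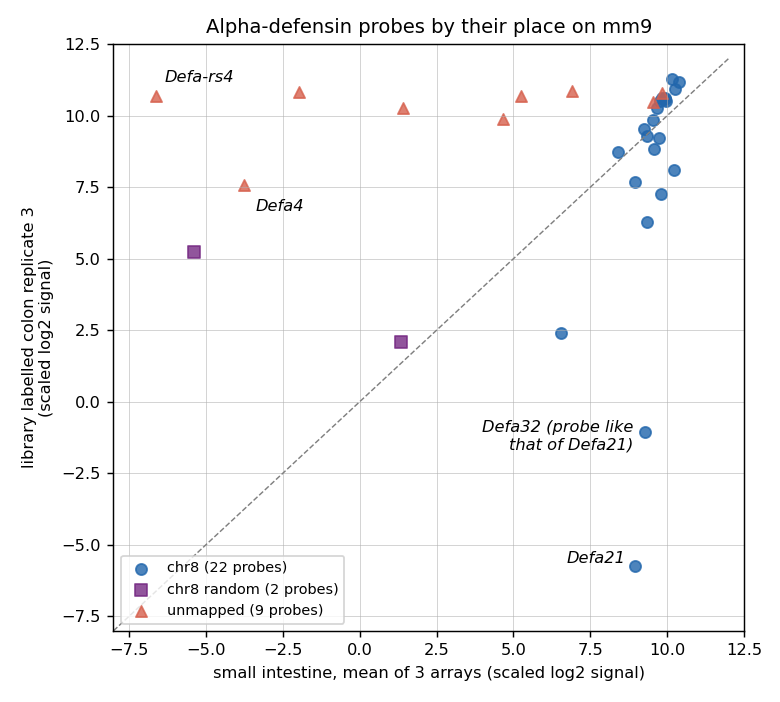
Scaled log2 signal of the 33 alpha-defensin probes, with the library labelled colon replicate 3 on the vertical axis and the mean of the 3 small intestine arrays on the horizontal axis, by the place the files give the probe; the line marks equality. Defa21 lies at -5.74 against 8.93, far below the line, and the probes without a place in mm9 lie above it.

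CT26 cells had the lowest mean of the 5 groups for Lyz1, Ang4, Itln1, Mmp7 and Pla2g2a. Lyz1 ranged from -3.67 to -3.43 and Ang4 from -3.45 to -2.69, both above background on all 3 arrays. Mmp7, Itln1, Pla2g2a and Defa21 were not well above background on any CT26 array. Against colon, 3 of 5 tested members were lower, where 16.2% of genes were called lower and 21% higher, and 0 members were higher. Mmp7, Itln1 and Pla2g2a were tested only because colon had them above background, so they could hardly be called higher. Lyz1 fell by 8.58 (SE 1.63, adjusted p = 0.00341), Ang4 by 8.57 (SE 1.01, adjusted p = 0.000331), and Itln1 was at least 811-fold lower (adjusted p = 0.00168). The Lyz1 call was lost without CT26 replicate 1, 2 or 3 (adjusted p = 0.0186, 0.0139 and 0.0138) and the Itln1 call without CT26 replicate 1 (adjusted p = 0.0116) and on the authors' table (adjusted p = 0.0101). Pla2g2a and Mmp7 missed the threshold (adjusted p = 0.0106 and 0.0284), and Pla2g2a passed without colon replicate 1 (adjusted p = 0.00524). Defa21, below background in both groups, was not tested.

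Without the third colon library all 5 were lower, where 19.4% of genes were called lower and 20.1% higher. Here too Mmp7, Itln1 and Pla2g2a were tested only through colon, which largely set their direction in advance. Lyz1 then fell by 6.37 (adjusted p = 4.2e-06) and Ang4 by 7.74 (adjusted p = 0.000396). Itln1 was at least 156-fold lower (adjusted p = 9.9e-05), Pla2g2a at least 13-fold (adjusted p = 6.4e-05) and Mmp7 at least 4.33-fold (adjusted p = 0.000197). Markers of epithelium as a whole were also lower in CT26, 8 of 8, with summed levels of 5.19 to 5.82 against 10.6 to 11.6 in colon, and Cdh1 and Epcam were not well above background there. Goblet cell markers were lower too, 9 of 9 with or without that library. Markers of both lists that were dim in CT26 were tested only through colon, so they could hardly be called higher. The part of these lists in the result was not tested.

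Compared with colon, adenomas had higher means for 5 of 6 members, all but Ang4. With all arrays, Defa21 was at least 265-fold higher in adenomas (adjusted p = 0.00149), 1 of 6 members called, where 2.07% of genes were called higher and 1.62% lower. The call was lost without adenoma replicate 1 or 2 (adjusted p = 0.0132 and 0.0176) and with the slide as a block (adjusted p = 0.0109). Without the third colon library it was at least 360-fold higher (adjusted p = 0.000526), and 4 members were called higher and 0 lower, where 5.02% and 6.68% of genes were called. Mmp7 was higher by 7.62 (SE 0.20, adjusted p = 9.1e-05), Pla2g2a by 6.69 (SE 0.43, adjusted p = 0.000586) and Lyz1 by 4.70 (SE 0.23, adjusted p = 0.000314). With all arrays these differences were 5.21, 3.86 and 2.49, with adjusted p of 0.142, 0.331 and 0.418. Itln1 was at 5.19 with an adjusted p of 0.0102, and 1 of its other probes passed (5.29, adjusted p = 0.00684), and with all arrays it was at 2.81 (adjusted p = 0.428). Ang4 was the exception, lower in adenomas than in colon by 2.06 with overlap (SE 1.02, adjusted p = 0.185), and with all arrays its difference was -2.90 (adjusted p = 0.147). Of the other alpha-defensins, 18 of 20 were higher in adenomas without the third library, and with it limma called 0 and 0 had an unadjusted p under 0.05, where 28.3% of all probes did. Those dim in colon were tested only through the adenomas, as was Defa21, and could hardly be called lower.

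The order of the group means differed between members. Lyz1 ran from small intestine (8.74 ± 0.57, SD) through adjacent tissue (8.21 ± 1.26), adenomas (7.52 ± 0.25) and colon (5.03 ± 3.83) to CT26 (-3.56 ± 0.12), and only colon and CT26 did not overlap among neighbors in this order. Defa21 ran from 8.93 ± 1.18 through 7.43 ± 3.103 and 3.56 ± 1.13 to -6.64 ± 0.83 and -6.94 ± 0.25, in the same order of groups, although colon and CT26 were not well above background and have no order. Its adenomas were apart from adjacent tissue and from colon. Itln1 kept this order too, with 9.45 ± 0.15, 8.96 ± 0.79, 7.495 ± 0.35, 4.69 ± 4.41 and -6.79 ± 0.28.

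Ang4 placed colon (5.63 ± 2.28) beside adjacent tissue (5.67 ± 1.99) and above adenomas (2.73 ± 0.60), with small intestine at 7.56 ± 0.33 and CT26 at -2.95 ± 0.43. Mmp7 was highest in adenomas (4.76 ± 0.07), followed by small intestine (4.55 ± 0.66), adjacent tissue (4.10 ± 0.50), colon (-0.45 ± 4.19) and CT26 (-6.19 ± 0.37). Pla2g2a was highest in adenomas (5.41 ± 0.09), followed by adjacent tissue (3.05 ± 0.97), colon (1.55 ± 4.96), small intestine (1.36 ± 0.71) and CT26 (-7.05 ± 0.33). Without the third library the colon means were 2.82 ± 0.33 for Lyz1, 2.30 ± 2.20 for Itln1, 4.79 ± 2.48 for Ang4, -7.09 ± 0.39 for Defa21, -2.86 ± 0.36 for Mmp7 and -1.28 ± 1.04 for Pla2g2a, which put colon below small intestine for Pla2g2a. Numbers of arrays were 3 in each group, 2 for adjacent tissue and 2 for colon without the third library.

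The genes whose profile over the 14 arrays lay nearest to each member were found by the root mean square difference of centered levels, among 23776 genes. Each gene was read from its brightest probe only. The arrays include the library labelled colon replicate 3, and distances without it were not computed. For Lyz1 they were Erich4 (0.81), Slc2a5 (0.81) and Fam20a (0.88), of which Slc2a5 is the fructose transporter of enterocytes. For Mmp7 they were Lgals2 (0.95), Fam20a (1.10) and Lyz1 itself (1.13). For Itln1 they were the antimicrobial lectins Reg3g (0.86) and Reg3b (0.96) and Prap1 (1.18). For Ang4 they were its paralog Ang3 (0.63), the transcript NAP113319-1 (0.90) and the ammonia transporter Rhbg (0.97). Defa21 and Pla2g2a had no gene as near by these probes, and for Defa21 the distances were 2.62 for Defa25, 2.70 for Rdh7 and 2.87 for Lct. For Pla2g2a they were 1.73 for Pitx1, 1.74 for Ly6d and 1.76 for Lrg1. The Defa32 probe shown beside that of Defa21 is not the brightest of its gene. It was therefore not compared, although its levels had the same shape as those of Defa21.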

How the data were processed

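Scanner output of every array was deposited (Feature Extraction 10.7.3.1, probe places in mm9 per the file headers). Its processed signal is an intensity from which the authors had subtracted background, with no normalization between arrays. A deposited table of normalized log2 values, whose method is not given in the sources used here, served as an alternative, and 28 flag and detection columns were not used. RNA had been extracted with RNeasy kits and labeled with Cy3. Control spots and 103 to 206 outlier spots per array were dropped. Processed signals were put on the log2 scale, lowered by the array's 75th percentile, and averaged over the spots of a probe. RefSeq accessions (GRCm38.p6, names only) gave names to 26582 of 55681 probes. Between 46.8% and 58.2% of probes were well above background. For each member, the brightest probe on average was read.

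Each of 6 pairs of groups, taken from the sample labels, was fitted with limma 3.58.1 in R 4.3.3 on its own arrays. A probe was tested if all arrays of 1 of the groups, or both, had it well above background, and p-values were adjusted by Benjamini-Hochberg. The method was tested on simulated data. The simulated noise was independent between arrays, so effects of a shared animal or of a single deviating array were not covered. Where a group did not have a probe above background, the fold is a bound against the lowest signal that was. The number of arrays limits the precision. In each comparison and list, up to 4 called genes per direction with the largest difference were named, and the 3 nearest profiles of each member. Alternatives were the deposited log2 table, normexp (offset 50), quantile normalization, other filters, thresholds and blocks, a fit of all 5 groups and the omission of each array. Members and lists were chosen with earlier results of these data known.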

Additional observations from a re-analysis of the deposited data

How the results depend on the processing

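Counts of called members moved under some settings. Between adenomas and adjacent tissue (0 members), normexp gave 1 (Pla2g2a), an adjusted p of 0.05 gave 2 (Itln1 and Pla2g2a), and leaving out 1 array gave 0 to 2, the 2 without adjacent replicate 2, where the lone adjacent array is assumed to vary as the adenomas do. Between adenomas and small intestine (4 members), a fit of all 5 groups gave 2 (Ang4 and Defa21). Between adenomas and colon (1 member), a slide block gave 0, and leaving out 1 array gave 0 to 4 (0 without adenoma replicate 1 or 2, 4 without the third colon library). Between colon and small intestine (1 member), a slide block gave 0, and leaving out 1 array gave 0 to 4 (0 without small intestine replicate 1 or 2 or colon replicate 1 or 2, 4 without the third colon library). Between CT26 and colon (3 members), a fit of all 5 groups and an adjusted p of 0.05 each gave 5, and leaving out 1 array gave 1 to 5 (1, Ang4, without CT26 replicate 1). The cause was not tested.

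Deviations of same-numbered arrays correlated from -0.22 to 0.30. With so few arrays per group, this cannot settle whether the samples were paired. The authors' titles number the adjacent arrays differently from the labels, and a pairing by title was not tested. With the replicate number as a block, colon against small intestine gave 0 members in place of 1, and CT26 against colon gave 4 in place of 3, with Pla2g2a added.

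Some small differences of single members changed sign when 1 array was left out. Adjacent tissue against small intestine ranged from -3.70 (without adjacent replicate 1) to 0.69 (without replicate 2) for Defa21, from -1.05 to 0.068 for Itln1 and from -1.42 to 0.36 for Lyz1. Adenomas against adjacent tissue ranged for Lyz1 from -1.58 to 0.20, the latter without adjacent replicate 1. Adenomas against small intestine ranged for Mmp7 from -0.16, without small intestine replicate 3, to 0.47. Colon against small intestine ranged for Pla2g2a from -2.64, without the third colon library, to 1.97, and was -0.12 without small intestine replicate 3 and -0.30 with a slide block. Adjusted p-values between adenomas and small intestine ranged, over the settings with all arrays, from 0.00754 to 0.487 for Lyz1, 0.000265 to 0.316 for Itln1, 4.3e-05 to 0.0789 for Pla2g2a, 0.000451 to 0.00424 for Defa21 and 1.4e-05 to 0.0023 for Ang4.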

Other observations

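Among relatives of Mmp7, Pla2g2a and Lyz1 (12 metalloproteases, secreted phospholipases and Lyz2), 10 were tested between adenomas and small intestine. Of these, 8 were called higher and 0 lower, where 11.3% of all genes were called higher and 11.1% lower. Lyz2, the relative of Lyz1, was below 0 at -1.68 and was not called. The collagenase Mmp13 rose by 4.44 and the stromelysin Mmp10 by 4.64, where their relative Mmp7 had 0.21. Mmp14, a membrane-bound metalloprotease, rose by 3.64, and Pla2g2e, a secreted phospholipase like Pla2g2a, by 3.40. Against adjacent tissue 4 of 11 tested rose, where 2.4% of all genes were called higher. They were Mmp13 by 3.50, Pla2g2e by 3.04, Mmp10 by 2.65 and Pla2g10 by 1.71.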
